A study of Mus musculus with 6 samples.

Results

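The IL-36 genes of mouse skin are the subject: 3 agonist genes, Il1f6 (IL-36 alpha), Il1f8 (IL-36 beta) and Il1f9 (IL-36 gamma), the antagonist gene Il1f5, and the receptor gene Il1rl2. They were found by symbol, 5 of 5 present among the 34590 genes counted, and all 5 passed the filter on low counts. Skin was taken from 3 Tnip1-/- and 3 Tnip1+/+ mice of strain C57BL/6, and every mouse had imiquimod, a Toll-like receptor agonist that inflames mouse skin, applied to the surface for 2 days. The product of Tnip1 binds ubiquitin chains and the enzyme A20 and dampens NF-kB activation, and the comparison asks which transcripts differ when it is lacking. Which stretch of Tnip1 was removed, and the sex and age of the mice, are not stated, and untreated skin was not analysed here.

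IL-36 alpha, beta and gamma are cytokines of the IL-1 family made mainly by keratinocytes and other epithelial cells. They bind the receptor chain IL1RL2, which then recruits the shared chain IL1RAP and signals through MyD88 to NF-kB. The antagonist binds the same receptor without recruiting IL1RAP. In humans, loss of the antagonist causes a pustular form of psoriasis.

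Libraries held 19529970 to 25864730 gene counts in Tnip1-/- skin and 24701074 to 31005554 in Tnip1+/+ skin (n = 3 mice each). Tnip1 itself had 47, 37 and 35 counts in Tnip1-/- skin and 938, 739 and 703 in Tnip1+/+ skin, which fits the labels. The library names carry the letters NORM in Tnip1-/- and IMQ in Tnip1+/+ samples, in separate number series, although the titles and treatment labels give imiquimod for all 6. What these letters mean is not stated, so the naming series and the genotype cannot be told apart. In the whole comparison 45.1% of 16691 tested genes were called, 22.3% higher and 22.7% lower in Tnip1-/- skin.

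The RefSeq promoters of 4 of the 5 members (build GRCm38.p6, plus strand, 250 bases before to 50 after the start) are shown because the ligand genes rose together and the receptor gene did not pass the test. That of Il1f10, an IL-1 family gene that lies beside Il1f5 and fell, is shown with them. No promoter was listed for Il1f6, the member with the largest rise, so none was searched for that gene. Capitals mark the motifs searched on both strands, with N for any base: GGG and CC parted by 5 bases for NF-kB, TGANTCA for AP-1, TTCNNNGAA for STAT, and GAAA repeated after 2 bases for interferon response elements.
Il1f9, chr2:24186226-24186525: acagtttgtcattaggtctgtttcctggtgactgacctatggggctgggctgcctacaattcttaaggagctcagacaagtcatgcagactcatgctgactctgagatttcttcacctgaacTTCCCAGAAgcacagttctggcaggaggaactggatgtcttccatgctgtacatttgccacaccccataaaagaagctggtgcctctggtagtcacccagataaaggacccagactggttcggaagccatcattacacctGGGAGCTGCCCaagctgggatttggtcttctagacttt
Il1f8, chr2:24152922-24153221: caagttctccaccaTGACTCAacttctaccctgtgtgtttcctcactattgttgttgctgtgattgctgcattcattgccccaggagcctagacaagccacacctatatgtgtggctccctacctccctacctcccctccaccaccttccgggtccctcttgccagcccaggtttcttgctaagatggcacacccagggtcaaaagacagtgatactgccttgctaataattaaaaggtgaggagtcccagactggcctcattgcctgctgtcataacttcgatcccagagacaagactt
Il1f5, chr2:24277021-24277320: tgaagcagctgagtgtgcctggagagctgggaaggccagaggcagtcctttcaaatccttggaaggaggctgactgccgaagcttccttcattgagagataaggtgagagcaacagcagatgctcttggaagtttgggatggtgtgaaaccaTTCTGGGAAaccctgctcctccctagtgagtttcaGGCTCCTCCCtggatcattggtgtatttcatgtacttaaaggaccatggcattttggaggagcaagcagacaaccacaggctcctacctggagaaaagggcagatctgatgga
Il1rl2, chr1:40324339-40324638: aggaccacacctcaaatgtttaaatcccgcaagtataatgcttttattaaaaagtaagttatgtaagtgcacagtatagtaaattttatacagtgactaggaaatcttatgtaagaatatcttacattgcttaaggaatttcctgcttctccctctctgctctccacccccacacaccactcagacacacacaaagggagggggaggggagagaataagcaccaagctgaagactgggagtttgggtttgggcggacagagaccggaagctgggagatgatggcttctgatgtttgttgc
Il1f10, chr2:24290946-24291245: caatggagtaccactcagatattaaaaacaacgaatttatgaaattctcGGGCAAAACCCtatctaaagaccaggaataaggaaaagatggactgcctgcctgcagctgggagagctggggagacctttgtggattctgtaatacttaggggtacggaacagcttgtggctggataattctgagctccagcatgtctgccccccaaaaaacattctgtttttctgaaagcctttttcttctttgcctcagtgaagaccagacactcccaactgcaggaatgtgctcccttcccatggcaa

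Il1f9 held a STAT match 128 bases before the start and overlapping NF-kB matches on opposite strands after it. Il1f8 held an AP-1 match 236 bases before its start and none of the other motifs. The Il1f5 promoter shown is that of the downstream of its 2 listed starts, and it held a STAT and an NF-kB match; the upstream one, and the promoter of Il1rl2, held no match to any of the 4 motifs. The Il1f10 promoter held overlapping NF-kB matches. Such letters are common: of 32851 promoters of the same length, 50.8% held the NF-kB motif, 8.3% the STAT motif, 7.81% the AP-1 motif and 3.44% the interferon motif. A match is a description of the letters and not of binding.

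All 3 agonist genes and the antagonist gene were higher in Tnip1-/- skin, by 3.11-fold to 6.65-fold, while the receptor gene stood at nearly the same level in both genotypes. Il1f6 gained the most of the 4 on the log2 scale. Il1f8 (1.64, SE 0.18) and Il1f5 (1.72, SE 0.18) gained the least and lay too close to rank. In the quasi-likelihood test of edgeR (Benjamini-Hochberg adjusted p under 0.05), 4 of the 5 members were called higher and 0 lower, against 22.3% of tested genes called higher. All 4 had a log2 fold change of at least 1, which held together with a call for 9.24% of tested genes. The median log2 fold change of the 5 was 1.72, against -0.04 over all tested genes. The same 4 had every Tnip1-/- library above every Tnip1+/+ library, which held for 29.2% of tested genes; groups that did not overlap, in either direction, were seen for 59.8%. In a whole biopsy, a change in the number of cells of a type and a change in RNA per cell cannot be told apart.

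Among the agonists, Il1f6 had 193, 235.5 and 186.7 CPM in Tnip1-/- skin and 35.8, 33.3 and 23.4 CPM in Tnip1+/+ skin. The lowest Tnip1-/- library was 5.21 times the highest Tnip1+/+ library, the widest gap of the 5 members. Its log2 fold change was 2.73 (SE 0.19, 95% interval of the fold 4.85 to 9.12, adjusted p = 3.12e-04, edgeR), and 1.6% of tested genes had a larger one.

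Il1f9 had 229, 260 and 240 CPM in Tnip1-/- skin and 66.3, 62.6 and 51.5 CPM in Tnip1+/+ skin. It was the least variable of the ligand genes in Tnip1-/- skin, with a coefficient of variation of 6.48%. The log2 fold change was 2.01 (SE 0.13, 95% interval of the fold 3.25 to 5.01, adjusted p = 2.49e-04, edgeR), the smallest p of the 5.

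Il1f8 had 107.1, 146.8 and 122.6 CPM in Tnip1-/- skin and 35.5, 49.6 and 35.9 CPM in Tnip1+/+ skin. The groups lay 2.16-fold apart at their nearest libraries, the narrowest gap among the ligand genes. The log2 fold change was 1.64 (SE 0.18, 95% interval of the fold 2.31 to 4.196, adjusted p = 0.00122, edgeR).

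Il1f5, the antagonist gene, had 379, 577 and 510 CPM in Tnip1-/- skin and 160, 143 and 143 CPM in Tnip1+/+ skin. Its Tnip1+/+ libraries lay close together and its Tnip1-/- libraries spread more, with coefficients of variation of 20.6% in Tnip1-/- and 6.72% in Tnip1+/+ skin. The log2 fold change was 1.72 (SE 0.18, 95% interval of the fold 2.47 to 4.38, adjusted p = 9.12e-04, edgeR). Among the Tnip1-/- libraries, replicate 2 was the highest for all 4 ligand genes. Without that library the log2 fold changes of Il1f6, Il1f9, Il1f8 and Il1f5 were 2.64, 1.98, 1.53 and 1.60, and all 4 were still called.

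The receptor gene Il1rl2 had 69.2, 72.9 and 65.4 CPM in Tnip1-/- skin and 71.3, 63.4 and 63.5 CPM in Tnip1+/+ skin. The groups overlapped, and the means were 69.2 ± 3.73 and 66.0 ± 4.54 CPM (SD, n = 3 each) in Tnip1-/- and Tnip1+/+ skin. The log2 fold change was 0.07 (SE 0.10, adjusted p = 0.625, edgeR), and its 95% interval of -0.18 to 0.31 spans a fold of 0.883 to 1.24. With library totals alone the value was -0.09 and with upper-quartile factors -0.02, so no direction is given.

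**Figure D1:**
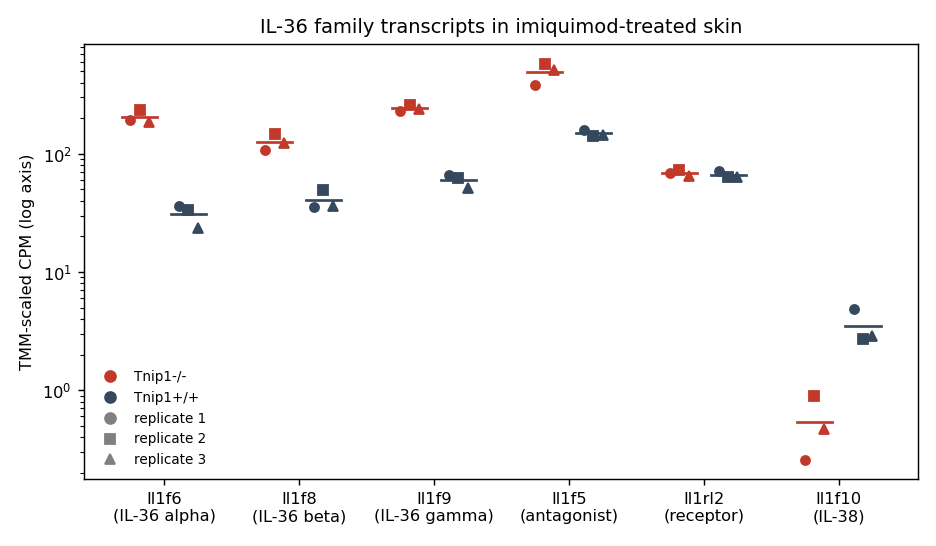
Level of each IL-36 family gene in every library, as TMM-scaled CPM on a log axis, with Tnip1-/- libraries in red and Tnip1+/+ libraries in dark blue; bars are means of 3 libraries. The 4 ligand genes sit higher in every Tnip1-/- library, Il1rl2 overlaps between genotypes, and Il1f10 sits lower in every Tnip1-/- library.

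In the GENCODE M21 annotation no exon of a member overlapped an exon of another gene on either strand. Of the stretches of 50 bases in their transcripts, 0% were shared with transcripts of other genes for Il1f6, Il1f5 and Il1rl2, 1.97% for Il1f8 and 8.68% for Il1f9.

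Per length, Il1f6 led the agonists in Tnip1-/- skin, and no agonist led throughout Tnip1+/+ skin. On the scale of per-length abundance (TPM, from merged exon lengths), Il1f6 stood at 720 ± 98.6, Il1f9 at 457 ± 37.1 and Il1f8 at 320 ± 55.9 in Tnip1-/- skin (SD, n = 3). In Tnip1+/+ skin the levels were 131 ± 29.4 for Il1f6, 137 ± 20.1 for Il1f9 and 124 ± 15.4 for Il1f8. So Il1f6 was the highest agonist per length in all 3 Tnip1-/- libraries, while in Tnip1+/+ skin the 3 agonists differed by less than their spread and each library had a different one on top. Each agonist has 1 coding transcript in the annotation, of 883 bases for Il1f6, 1217 for Il1f8 and 1648 for Il1f9. The TPM scale took in only symbols matched to the annotation, 76.4% to 82.3% of the gene counts of a library. It used no TMM factors, so genotypes are not compared on it.

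For the antagonist and receptor genes the place in this order depended on the length assumed. With merged exons of 4493 bases Il1f5 stood at 338 ± 75.4 TPM in Tnip1-/- skin and 125 ± 15.8 TPM in Tnip1+/+ skin, beside Il1f8. With the median length of its 5 coding transcripts, 1403 bases, it stood at 1083 ± 242 and 399 ± 50.6 TPM in Tnip1-/- and Tnip1+/+ skin, above every agonist. Il1rl2 was the lowest member in Tnip1-/- skin at either length, at 31.5 ± 1.72 or 109.9 ± 6.01 TPM. In Tnip1+/+ skin it was lowest only with merged exons (36.5 ± 4.67 TPM), and with the median transcript its 128 ± 16.3 TPM lay within the spread of the agonists.

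Il1f6 took a larger share of the agonist counts in Tnip1-/- skin. Il1f6 gave 36.5%, 36.7% and 34.0% of the summed agonist counts in Tnip1-/- skin and 26.0%, 22.9% and 21.1% in Tnip1+/+ skin. Il1f8 gave 20.3%, 22.9% and 22.3% in Tnip1-/- skin and 25.8%, 34.1% and 32.4% in Tnip1+/+ skin. Neither pair of ranges overlapped, whereas the share of Il1f9, 40.4% to 43.7% in Tnip1-/- and 43.0% to 48.2% in Tnip1+/+ skin, did. These shares are of counts and not of molecules, since the transcripts differ in length.

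The agonists differed in how their counts stood to those of the antagonist gene. Per count of Il1f5 there were 0.509, 0.408 and 0.366 counts of Il1f6 in Tnip1-/- skin and 0.224, 0.234 and 0.164 in Tnip1+/+ skin, a difference of 1.05 in the mean log2 ratio. The ratio of Il1f9 to Il1f5 was 0.603, 0.450 and 0.470 in Tnip1-/- skin and 0.414, 0.439 and 0.360 in Tnip1+/+ skin, a smaller difference of 0.32 with groups that nearly touched. The groups overlapped for Il1f8, at 0.282, 0.255 and 0.240 counts per count of Il1f5 in Tnip1-/- skin and 0.222, 0.348 and 0.251 in Tnip1+/+ skin. That difference was -0.05 and turned to 0.13 without Tnip1+/+ replicate 2. Summed over the 3 agonists, there were 1.39, 1.11 and 1.08 counts per count of Il1f5 in Tnip1-/- skin and 0.859, 1.02 and 0.774 in Tnip1+/+ skin.

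Within the agonists, the log2 ratio of Il1f6 to Il1f8 was higher by 1.11 in Tnip1-/- skin (mean 0.71 ± 0.12, against -0.39 ± 0.35 in Tnip1+/+ skin, SD), and that of Il1f6 to Il1f9 by 0.73 (-0.25 ± 0.11, against -0.98 ± 0.14). Every library of each genotype stood apart from those of the other in both ratios. The log2 ratio of Il1f9 to Il1f8 differed by 0.38, with overlapping groups. In the two-sided exact permutation test, the 4 ratios whose groups did not overlap reached p = 0.1 (0.15 adjusted over the 6 ratios). With 3 mice against 3 that is the smallest p the test allows, so it cannot pass 0.05.

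**Figure D2:**
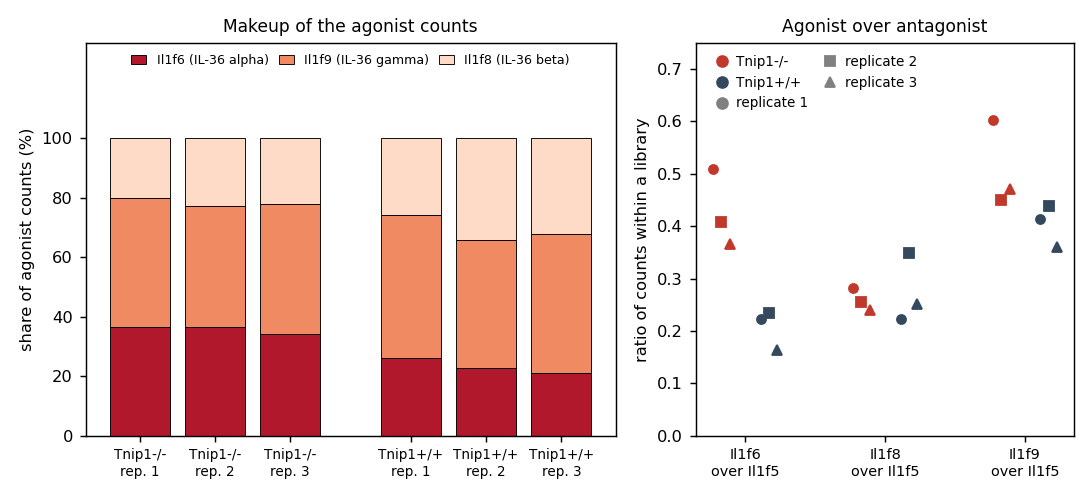
Left, share of the summed agonist counts taken by Il1f6, Il1f9 and Il1f8 in each library, in percent; right, counts of each agonist per count of the antagonist gene Il1f5, with Tnip1-/- in red and Tnip1+/+ in dark blue. The Il1f6 share is 34.0% to 36.7% in Tnip1-/- skin and 21.1% to 26.0% in Tnip1+/+ skin, and the Il1f6 ratio separates the genotypes.

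On chromosome 2 the ligand genes lie side by side in the order Il1f8, Il1f9, Il1f6, Il1f5, Il1f10, Il1rn and Psd4 in the RefSeq table. All of them rose in Tnip1-/- skin except Il1f10, which fell between its rising neighbours. Il1f10 encodes IL-38, a cytokine reported to bind the IL-36 receptor, and had 6, 21 and 9 counts in Tnip1-/- skin and 161, 80 and 78 counts in Tnip1+/+ skin. Its level was 0.539 ± 0.321 CPM in Tnip1-/- and 3.48 ± 1.17 CPM in Tnip1+/+ skin (SD, n = 3 each). The log2 fold change of Il1f10 was -2.67 (SE 0.47, adjusted p = 0.00482, edgeR). It ranged from -3.25 to -2.32 when 1 library was left out, and was -4.32 with a score of muscle and fat markers as a covariate. The 36 counts summed over the Tnip1-/- libraries, against 319 over the Tnip1+/+ libraries, are few for the size of this fall.

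The neighbouring Il1rn, which encodes the IL-1 receptor antagonist, had 146, 151 and 107 CPM in Tnip1-/- skin and 61.9, 56.2 and 48.2 CPM in Tnip1+/+ skin. Its log2 fold change was 1.28 (SE 0.17), below those of the 4 IL-36 ligand genes. Psd4, an exchange factor gene at the end of the cluster, rose by 0.77 (SE 0.17). A list of 8 tested genes of the wider IL-1 region of chromosome 2 left out the IL-36 members. Of these 8, 5 rose and 1 fell, with a median log2 fold change of 0.96. That is 62.5% higher and 12.5% lower, against 22.3% and 22.7% of all tested genes. Those that rose included Il1b (2.83), Il1a (1.61) and the phosphate transporter gene Slc20a1 (1.16), and the gene that fell was Il1f10.

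The receptor gene Il1rl2 lies in a second cluster, on chromosome 1, in the order Il1r2, Il1r1, Il1rl2, Il1rl1, Il18r1, Il18rap, Slc9a4 and Slc9a2. A list of 8 tested genes of the receptor region left out Il1rl2 and took in Map4k4. Of these 8, 2 rose and 1 fell, with a median log2 fold change of 0.12. These shares, 25.0% higher and 12.5% lower, stand against 22.3% and 22.7% of all tested genes and are no result about the region. Il18rap, an accessory chain of the IL-18 receptor, rose by 2.14 (SE 0.28), with 23.5, 14.4 and 12.9 CPM in Tnip1-/- skin and 3.30, 4.69 and 3.59 CPM in Tnip1+/+ skin. Map4k4, a kinase gene, rose by 0.34 and the decoy receptor gene Il1r2 fell by 0.82. The immediate neighbours of Il1rl2 had values of 0.79 for Il1r1 (adjusted p = 0.0735, edgeR) and 0.33 for Il1rl1 (adjusted p = 0.316), and Il18r1 had -0.10. Il1r2 lost its call without Tnip1-/- replicate 2 or 3 or Tnip1+/+ replicate 1 or 3 (-0.78, -0.66, -0.50 and -0.92). Map4k4 lost it without any 1 library (0.26 to 0.40), so the number that rose was 1 in these fits except without Tnip1-/- replicate 3, where Il1r1 passed (1.05).

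**Figure D3:**
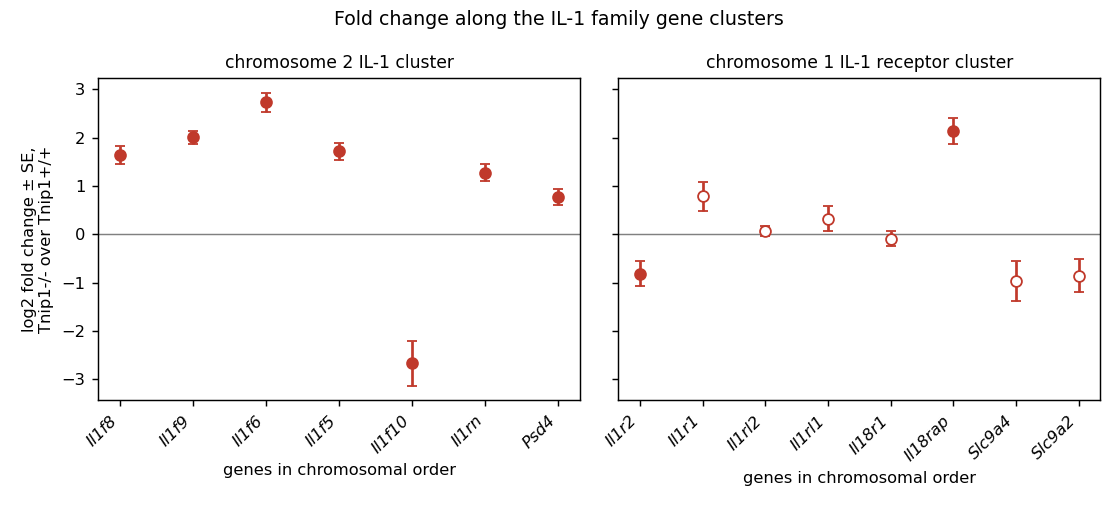
Log2 fold change with its SE for each gene of the IL-1 cluster of chromosome 2 (left) and the IL-1 receptor cluster of chromosome 1 (right), in chromosomal order; filled points have an adjusted p under 0.05. On the left all genes but Il1f10 lie above 0 and Il1f10 lies at -2.67, whereas Il1rl2 lies at 0.07 on the right.

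Of 20 tested genes of the IL-36 receptor signalling list, 5 rose and 1 fell. That is 25.0% higher and 5.0% lower, against 22.3% and 22.7% of all tested genes, so the share that rose was near the background. The median log2 fold change of the 20 was 0.24. Myd88, the adaptor gene, had 70.9, 45.8 and 42.4 CPM in Tnip1-/- skin and 30.9, 22.4 and 23.6 CPM in Tnip1+/+ skin (log2 1.05, SE 0.23). Nfkb1, which encodes an NF-kB subunit, rose by 0.80 (SE 0.15), and Tollip, the gene of an IRAK-binding adaptor, by 0.64 (SE 0.16). The kinase genes Chuk (0.37) and Map3k7 (0.33) also rose, by small amounts, and Tab2, the gene of a partner of that kinase, fell by 0.79 (SE 0.16).

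The co-receptor gene Il1rap had 84.2, 85.1 and 74.3 CPM in Tnip1-/- skin and 75.7, 59.7 and 59.0 CPM in Tnip1+/+ skin, with overlapping groups. Its log2 fold change was 0.32 (SE 0.13, adjusted p = 0.0844, edgeR), and it passed without Tnip1+/+ replicate 1 (0.47). The number of signalling genes that rose was 3 without Tnip1-/- replicate 1 or 2 or Tnip1+/+ replicate 3, and 8 without Tnip1+/+ replicate 1. It was 2 with 2 lower under library totals alone. Tollip lost its call without Tnip1-/- replicate 1 (0.59). Chuk lost it without any 1 Tnip1-/- library or Tnip1+/+ replicate 3 (0.36 to 0.39), and Map3k7 without every library in turn except Tnip1+/+ replicate 2 (0.32 to 0.35).

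Proteases trim the IL-36 ligands into their active forms, and in humans cathepsin S and neutrophil granule proteases have been described in this role. Ctss, the cathepsin S gene, stood at 258 ± 30.1 CPM in Tnip1-/- and 251 ± 86.7 CPM in Tnip1+/+ skin (log2 0.04, SE 0.24). The neutrophil protease genes Elane, with 2, 0 and 0 counts in Tnip1-/- skin and 1, 1 and 4 in Tnip1+/+ skin, and Ctsg, with 7, 4 and 6 counts in Tnip1-/- and 4, 7 and 3 in Tnip1+/+ skin, were too low to test. Prtn3, the neutrophil proteinase 3 gene, was tested, with 17, 8 and 12 counts in Tnip1-/- and 4, 34 and 8 in Tnip1+/+ skin. Its groups overlapped (log2 0.12, adjusted p = 0.911, edgeR). Of the 10 tested genes of proteases and their inhibitors, 4 rose and 1 fell, with a median log2 fold change of 0.09. That is 40.0% higher and 10.0% lower, against 22.3% and 22.7% of all tested genes.

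Slpi, Csta and Serpinb1a, among the 4 that rose, encode inhibitors. Slpi, an inhibitor of neutrophil elastase, had 209, 254 and 229 CPM in Tnip1-/- skin and 5.34, 3.53 and 2.59 CPM in Tnip1+/+ skin (log2 5.91, SE 0.29). Csta, a cysteine protease inhibitor gene of the stefin family, rose by 2.28 (SE 0.19), with reads that may be split among near-identical stefin copies. Serpinb1a, an inhibitor of neutrophil serine proteases, rose by 1.89 (SE 0.31). The fourth, the cathepsin L gene Ctsl, had 858, 1152 and 1446 CPM in Tnip1-/- skin and 496, 412 and 347 CPM in Tnip1+/+ skin (log2 1.46, SE 0.23). Dpp4, a membrane peptidase gene, fell by 1.29 (SE 0.28). Not every inhibitor gene rose: Cst3 stood at -0.30 (adjusted p = 0.0572, edgeR) and Serpina3n at 0.06 (adjusted p = 0.865). Cst3 was called lower with library totals, upper-quartile factors, the DESeq2 Wald test, voom and the stricter filter.

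Genes of inflamed epidermis, most of which IL-36 is known to raise in keratinocytes among other stimuli, had a larger median change than the IL-36 members. Of 21 tested genes, 18 rose and 1 fell, 85.7% higher against 22.3% of all tested genes, with a median log2 fold change of 3.75. Krt16, a stress keratin, had 6876, 5977 and 6344 CPM in Tnip1-/- skin and 107.7, 122.6 and 59.3 CPM in Tnip1+/+ skin (log2 6.05, SE 0.35). The beta-defensin gene Defb4 rose by 6.63 (SE 0.39) and the calprotectin gene S100a9 by 7.18 (SE 0.80). Il1b rose by 2.83 (SE 0.36), close to Il1f6. Vnn1, a pantetheinase gene, fell by 2.61 (SE 0.64). The cytokine gene Csf2 (0.10, adjusted p = 0.916, edgeR) and the chemokine gene Ccl20 (0.93, adjusted p = 0.0868) did not pass, although Ccl20 passed without Tnip1-/- replicate 3 (1.21). The number that rose was 14 to 18 when 1 library was left out. Il6, Cxcl1, Tnf and Zc3h12a lost their calls in some of these fits. Without Tnip1-/- replicate 1, Il6 stood at 2.16, against 3.44 with all libraries. The list was assembled with earlier results of these data known and is no independent evidence of its direction.

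**Figure D4:**
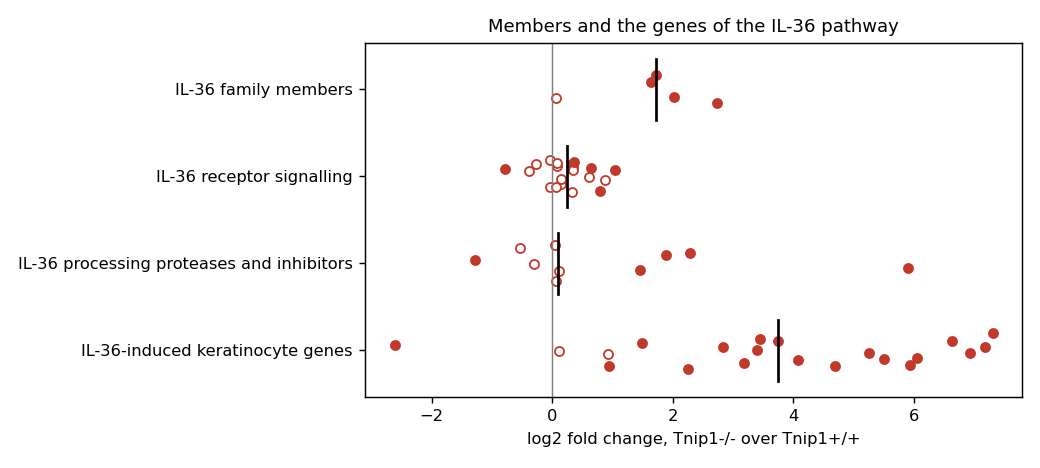
Log2 fold change of each tested gene in the IL-36 members and the lists of receptor signalling, processing and induced genes; filled points have an adjusted p under 0.05 and black bars are list medians (1.72, 0.24, 0.09 and 3.75). The signalling genes gather near 0, and the induced genes reach 7.30.

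The genes whose profile over the 6 libraries came closest to each member were sought among 13085 other genes of at least 1 CPM, by the root mean square difference of centred log2 CPM. These profiles share the genotype contrast, and the measure is a description. Closest to Il1f6 was Nos2, the inducible nitric oxide synthase gene, at 0.11 log2 units, followed by Trex2, a nuclease gene of keratinocytes (0.25), and the lactate transporter gene Slc16a3 (0.26). Nos2 stood at 3.28, 3.26 and 3.03 CPM in Tnip1-/- skin and 0.540, 0.510 and 0.296 CPM in Tnip1+/+ skin, so it shared the steep contrast of Il1f6 at a far lower level. Those values rest on 76, 77 and 58 counts in Tnip1-/- and 18, 15 and 8 in Tnip1+/+ skin, few for so close a match.

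Closest to Il1f9 were Lrp8, a lipoprotein receptor gene (0.09), Nkpd1 (0.09) and Tmem229b (0.12). Il1f8 was closest to Tdg, a DNA glycosylase gene (0.16), the phosphatase gene Dusp14 (0.18) and Tmem229b (0.19). Il1f5 was closest to Idi1, an enzyme of isoprenoid synthesis (0.13), the guanylate kinase gene Guk1 (0.14) and the glycolytic enolase gene Eno1 (0.14), whose reads may be shared with near-identical copies. Il1rl2 was closest to Klraq1 (0.02), Fastk (0.03) and Wasf2 (0.03).

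Among the members themselves, Il1f8 and Il1f5 were the nearest pair, at 0.21 log2 units. Il1f5 ranked 8 of 13085 for Il1f8 and 20 for Il1f9. Il1f6 stood further off, at 0.38 from Il1f9 and 0.57 and 0.59 from Il1f5 and Il1f8. Il1rl2 differed from every ligand by 0.82 or more.

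Markers of several cell types differed as well, and their counts stand against 22.3% of all tested genes higher and 22.7% lower. Of 14 tested keratinocyte markers 8 rose and 2 fell, with a median log2 fold change of 0.89, and their summed level was 27250 to 31310 CPM in Tnip1-/- skin and 11100 to 18140 CPM in Tnip1+/+ skin. Krt14, a keratin of basal cells, rose by 2.54 and the desmoplakin gene Dsp stood at 0.44 (adjusted p = 0.159, edgeR). The 2 that fell were the keratin genes Krt15 (-3.08) and Krt10 (-0.95). Trp63, which encodes a transcription factor of stratified epithelium, had 203, 216 and 174 CPM in Tnip1-/- skin and 194, 159 and 212 CPM in Tnip1+/+ skin, overlapping as Il1rl2 did. The keratinocyte markers ranged from -3.08 to 2.54, beside 1.64 to 2.73 for the 4 ligand genes, and the part of cell makeup in the ligand values was not tested.

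All 11 tested neutrophil markers rose, with summed levels of 7438 to 12130 CPM in Tnip1-/- and 39.6 to 187 CPM in Tnip1+/+ skin. In Tnip1-/- skin most of that sum came from S100a8 and S100a9, which stressed keratinocytes also express. Ly6g, a defining neutrophil marker, had 9, 0 and 4 counts in Tnip1-/- skin and 0 in each Tnip1+/+ library. Mpo had 11, 8 and 0 counts in Tnip1-/- skin and 5, 1 and 0 in Tnip1+/+ skin. Like Ly6g and Elane, it was not tested. The number of neutrophil markers that rose was 9 to 11 when 1 library was left out, as Fpr1 and Fpr2 lost calls. Of 10 macrophage and monocyte markers 3 rose and 0 fell, with a median log2 fold change of 0.03. Summed levels were 2029 to 2437 CPM in Tnip1-/- and 1113 to 1586 CPM in Tnip1+/+ skin. Those that rose were Lyz2 (1.15), Mrc1 (1.09) and Csf1r (0.31), and 5 rose without Tnip1+/+ replicate 2. Csf1r lost its call without every library in turn except Tnip1+/+ replicate 2. With all libraries, Ccr2 (0.835) and Emr1 (0.54) lay above 0 without a call. Ly6c2 (-0.70), Fcgr1 (-0.63), Mertk (-0.53), Cd68 (-0.44) and Cd163 (-0.255) lay below 0 without a call. Of 9 Langerhans and dendritic cell markers 0 rose and 5 fell (127 to 159 CPM in Tnip1-/-, 143 to 178 CPM in Tnip1+/+ skin), and 3 fell without Tnip1+/+ replicate 2. Cd207, the defining Langerhans marker, fell by 2.85, whereas Epcam stood at 0.11. Epcam gave most of the summed level of this list in every library. It had 118, 136 and 109 CPM in Tnip1-/- skin and 129, 91.0 and 117 CPM in Tnip1+/+ skin.

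Markers of deeper skin layers were lower in Tnip1-/- skin. Of 8 skeletal muscle markers 7 fell, with sums of 2493 to 4105 CPM in Tnip1-/- and 8348 to 14620 CPM in Tnip1+/+ skin; Myh4 (-1.81) and Acta1 (-1.17) were the highest. Of 8 adipocyte markers 3 fell, with sums of 134 to 1451 CPM in Tnip1-/- and 2481 to 4429 CPM in Tnip1+/+ skin, and 6 fell without Tnip1-/- replicate 2 and 1 without Tnip1-/- replicate 3 or Tnip1+/+ replicate 2. The library with 134 CPM was Tnip1-/- replicate 2, which also had the highest level of each ligand gene among the Tnip1-/- libraries. Fabp4 stood at -1.98, a call that ended without Tnip1-/- replicate 3 or any 1 Tnip1+/+ library (-1.58 to -2.14), and Cfd at -1.41 (adjusted p = 0.432, edgeR).

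Of 8 fibroblast markers 3 fell, Dcn among them (-0.82), with sums of 6313 to 7033 CPM in Tnip1-/- and 6721 to 16800 CPM in Tnip1+/+ skin. The number was 1 without Tnip1-/- replicate 2 or 3, in which Dcn lost its call (-0.81 and -0.76), and Col3a1 had -0.21 but 0.54 without Tnip1+/+ replicate 1. Of 5 tested hair follicle markers 2 fell (42.0 to 50.5 CPM in Tnip1-/-, 50.3 to 90.7 CPM in Tnip1+/+ skin), with 1 lower without Tnip1-/- replicate 1 or 3 and 4 lower without Tnip1+/+ replicate 2; the highest of them, Krt75 and Sox9, had -0.36 and -0.34 and did not pass. Of the 2 keratinocyte markers that fell, 1 was called without Tnip1-/- replicate 1 or 3 or Tnip1+/+ replicate 1 or 3.

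A score of the muscle and fat markers was -1.52 to -0.27 in Tnip1-/- and 0.40 to 1.12 in Tnip1+/+ skin, without overlap. With this score as a covariate Il1f6 (2.45, adjusted p = 0.0198, edgeR) and Il1f9 (1.87, adjusted p = 0.0188) were still called. Il1f8 (1.52, adjusted p = 0.0618) and Il1f5 (1.28, adjusted p = 0.0514) were not, while 857 genes were called in all. Since the score did not overlap between the genotypes, the score and the genotype cannot be fully told apart in that fit.

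**Figure D5:**
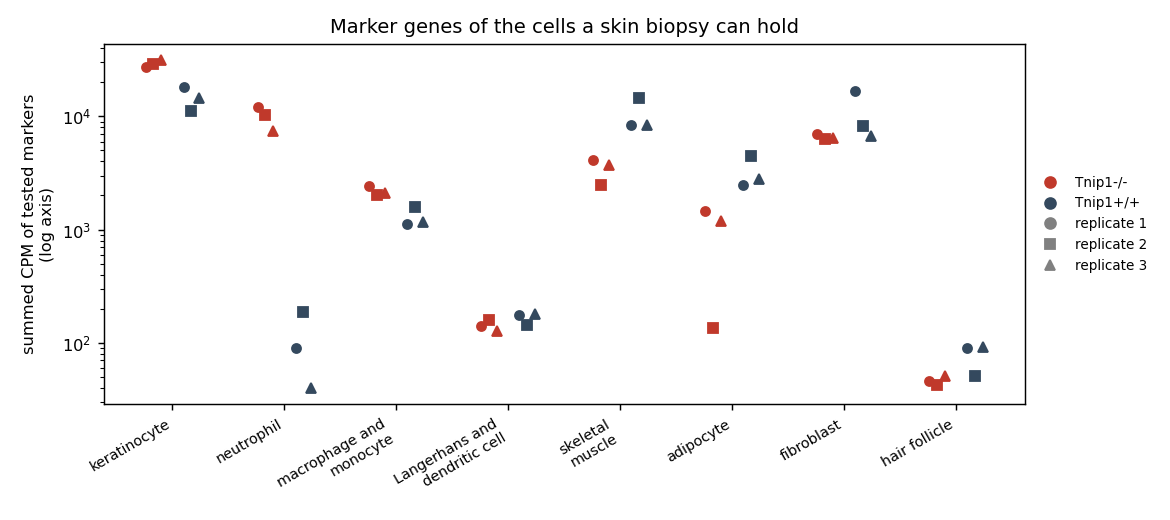
Summed CPM of the tested marker genes of 8 cell types in every library, on a log axis, with Tnip1-/- in red and Tnip1+/+ in dark blue. Keratinocyte and neutrophil sums are higher and muscle and adipocyte sums lower in every Tnip1-/- library, and the adipocyte sum of Tnip1-/- replicate 2 is 134 CPM.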

How the data were processed

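RNA of skin biopsies from 6 mice was measured, 3 Tnip1-/- and 3 Tnip1+/+. The authors deposited 1 file of counts for each library, giving raw whole reads by gene symbol. Per the labels' protocols, TRIzol RNA went through Ribo-Zero depletion before stranded, paired-end library preparation. Build mm9 is named in the submitters' processing notes, beside HTSeq, STAR, BWA, CASAVA 1.7, R 3.2.3 and limma. Their order, the strand option and the annotation are not given in the sources used here. The 5 summary lines of the counter held 26.7% to 28.0% of each Tnip1-/- file and 27.6% to 30.3% of each Tnip1+/+ file, and were left out.

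Everything else was computed from these counts. The test was edgeR 4.0.16 in R 4.3.3: TMM factors, filterByExpr with the genotype groups, the quasi-likelihood test, and Benjamini-Hochberg adjustment over the 16691 tested genes. Calls are adjusted p-values under 0.05. Levels are TMM-scaled CPM unless named otherwise. The standard error (SE) of a log2 fold change is its size over the root of F. The procedure was tested on simulated data before use.

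The members and the gene lists were chosen with earlier results of these data known. Named genes were the members, the 4 smallest p of each pathway or locus list, the 2 highest of each cell list, and the 3 genes most like each member. Il1rap, Map3k7, Chuk, Trp63, Ctss, Elane, Ctsg, Dpp4, Csf2, Ccl20, Vnn1, Il1f10, Psd4 and Il18r1 were added after their values were seen. So were Krt15, Krt10, Il6, Cxcl1, Tnf, Zc3h12a, Mpo, Fpr1 and Fpr2. The same holds for Prtn3, Cst3, Serpina3n, Csf1r, Ccr2, Emr1, Ly6c2, Fcgr1, Mertk, Cd68 and Cd163. Alternatives were other scalings (DESeq2 1.42.0 size factors, library totals, upper quartile), the DESeq2 Wald test, limma 3.58.1 voom, robust dispersion, other filters, the replicate number as a block, a covariate scoring muscle and fat markers, and each library left out. A second gene length was added after seeing the data. Exon lengths came from GENCODE M21 and promoters from RefSeq, of build GRCm38, which is not the build of the counts.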

Additional observations from a re-analysis of the deposited data

How the results depend on the processing

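Across the other scalings, tests, filters and models, and with each library left out, Il1f6 stayed called with a log2 fold change of 2.45 to 2.87 and Il1f9 of 1.86 to 2.10. Il1f8 and Il1f5 stayed called in all but the fit with the muscle and fat covariate (1.52 and 1.28). Leaving out 1 library gave 2.58 to 2.87 for Il1f6, 1.53 to 1.81 for Il1f8, 1.92 to 2.10 for Il1f9, 1.60 to 1.88 for Il1f5 and 0.04 to 0.14 for Il1rl2. Il1rl2 was not called in any fit, and its sign turned with library totals (-0.09), upper-quartile factors (-0.018) and the covariate (-0.10). Library totals alone shifted the median of all genes by -0.155, and relative to that median Il1rl2 stood at 0.10; of the genes called then, 34.1% were higher, against 49.6% with TMM, and 42.0% with upper-quartile factors. The covariate left 857 genes called, 439 higher and 418 lower, of 7525, 3730 and 3795. Leaving out 1 library gave 5471 to 6866 called, 2792 to 3421 higher and 2679 to 3445 lower.

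Counts of listed genes moved too; the causes were not tested. With the covariate, the number higher was 2 of the IL-36 members, 0 of the signalling list, 8 of the induced list, 2 of the chromosome 2 neighbours, 1 of the receptor cluster, 0 of the keratinocyte and 1 of the macrophage markers. The number lower was then 0 in the signalling, processing, induced and receptor cluster lists and the muscle, adipocyte, fibroblast and hair follicle markers, and 1 of the keratinocyte and Langerhans markers. With library totals, 2 signalling genes were higher and 2 lower, 1 receptor cluster gene was higher and 2 lower, and 2 processing genes and 2 macrophage markers were lower. The processing list had 2 lower with upper-quartile factors, the DESeq2 Wald test, voom and the stricter filter. The receptor cluster had 1 higher with upper-quartile factors and with no filter, and macrophage markers had 1 lower with voom. Hair follicle markers had 4 lower with no filter and with the stricter filter. Leaving out 1 library gave 3 to 8 signalling genes higher, 1 to 2 higher and 0 to 1 lower in the receptor cluster, 1 to 2 keratinocyte markers lower, 2 to 5 macrophage markers higher and 0 to 1 lower, 3 to 5 Langerhans, 1 to 6 adipocyte, 1 to 3 fibroblast and 1 to 4 hair follicle markers lower, and 0 to 1 fibroblast markers higher. The log2 ratio of Il1f8 to Il1f5 ranged from -0.19 to 0.13. With the median transcript length, added after seeing the data, Il1f5 stood at 1083 TPM in Tnip1-/- and 399 TPM in Tnip1+/+ skin, and Il1rl2 at 109.9 and 128 TPM.

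Whether replicate numbers pair the mice is not stated in the labels. Deviations of same-numbered libraries correlated at 0.01, -0.21 and 0.19. Those of unlike number ran from -0.29 to 0.26, so the check cannot decide on pairing. With the replicate block 6465 genes were called and the 4 ligand genes kept their calls, while 3 signalling genes and 1 receptor cluster gene were higher and 1 macrophage marker was lower. A gene with 3 counts in a library would stand at 0.0968 to 0.154 CPM of library totals, which is the level that a count of 0 allows.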
